A study of Mus musculus with 9 samples.

Results

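Laminins, nidogens, perlecan and agrin are among the non-collagen parts of basement membranes. Here, 10 of their genes were followed in mouse embryonic fibroblast lines that differ in the gene Oga. The genes were Lama2, Lama4, Lama5, Lamb1, Lamb2, Lamc1, Nid1, Nid2, Hspg2 and Agrn, chosen by symbol, and all 10 were on the array. Every probe set that the platform annotation assigns to one of them was taken, which gave 21 of the 45037 probe sets that are not controls. Of these, 17 had a mean at or above the low-value limit of 6.22 (log2), under which the lowest 40% of probe sets fall. In the table with 1 probe set per gene, the members are 10 of 12962 genes, each read by its probe set with the highest mean. Oga encodes O-GlcNAcase, the enzyme that takes the sugar O-GlcNAc off nuclear and cytoplasmic proteins. The 3 groups were a WT line, a line labelled Oga heterozygous (Het) and a line labelled Oga knockout (KO), all from female embryos at stage E12.5 and cultured in DMEM, with 3 arrays each. An Oga floxed/+ male of C57B1/6 background had been mated to an MMTV-cre female, a strain in which the promoter of mouse mammary tumour virus drives the Cre recombinase, and their Oga +/- offspring were intercrossed to give the embryos. The labels do not say whether the cells of any line kept the Cre transgene or an unrecombined floxed allele. Each genotype is 1 line, and the design text calls the arrays technical replicates. The p-values therefore measure only the spread between arrays of a line, and genotype cannot be told apart from any other difference between the lines.

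Laminins are heterotrimers of an alpha, a beta and a gamma chain that assemble into sheets on the cell surface. Nidogens and the heparan sulfate proteoglycans perlecan and agrin tie that sheet to the type IV collagen network. The alpha chain sets which integrins and whether dystroglycan can bind, and fibroblasts, smooth muscle, Schwann cells and endothelium each deposit their own mix of chains.

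Array values correlated at 0.997 to 0.999 within lines and at 0.989 to 0.996 between lines. Oga, the check of the labels, read 11.92 ± 0.033 (SD, n = 3 arrays) in WT, 11.16 in Het and 6.06 ± 0.026 in KO at its brightest probe set. All 9 fibroblast markers lay above the low-value limit in every line, and their summed linear level ran from 167234 to 168286 in WT, 164168 to 165051 in Het and 155468 to 161063 in KO. One of them, the PDGF receptor gene Pdgfra, fell by 2.55 (log2) in the KO line. There Dcn fell by 0.93 and Col3a1 by 0.20, while Vim rose by 0.11. Of the 8 endothelial markers 6 were below the limit in WT and Het and 4 in KO. All 8 summed to 620 to 659 in WT, 623 to 656 in Het and 662 to 709 in KO, so KO stood above both other lines. Kdr (0.02) and Esam (0.04) had KO minus WT differences within the array spread, and Esam rose in Het (0.26, limma adjusted p = 0.031). The 10 macrophage markers summed to 46446 to 47499 in WT, 37088 to 39381 in Het and 12680 to 13348 in KO. The 8 smooth muscle and pericyte markers ran the other way, at 50894 to 51498, 59586 to 60592 and 76560 to 77838. The same held for the 9 skeletal muscle markers, at 1863 to 1934, 2801 to 3083 and 4676 to 4771. Of them Myod1 and Myf5 were below the limit in all lines and Myh3 in WT. The 8 epithelial markers summed to 1048 to 1064, 1133 to 1147 and 1664 to 1773. Of them Cdh1 and Krt14 were below the limit throughout and Cldn4 in WT. The 5 measured Schwann and neural markers summed to 1088 to 1165, 1642 to 1832 and 1615 to 1710. In such bulk RNA, fewer cells of a type and less RNA per cell cannot be told apart. The part of these cell types in the results that follow was not tested.

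Upstream sequence is shown for Lama5 and Hspg2, the members with the largest rises among the 4 whose line means were ordered WT, Het, KO, and for Lamb2 and Agrn, the pair that stood highest in Het. RefSeq windows (GRCm38.p6) were matched by symbol for 7 of the 10 members, with 8 windows in all because Agrn has 2 starts. Lama4, Lamc1 and Nid2 had no window in the reference used. The 250 bases before the annotated start are printed 5′ to 3′ on the gene's strand, and for Agrn the window of the more upstream start. Capitals mark GGGCGG on either strand, the core of the GC box, with overlapping matches counted separately. The windows lie at chr2:180225860-180226109 (minus strand) for Lama5, chr4:137468553-137468802 (plus) for Hspg2, chr9:108479612-108479861 (plus) for Lamb2 and chr4:156197489-156197738 (minus) for Agrn.
Lama5: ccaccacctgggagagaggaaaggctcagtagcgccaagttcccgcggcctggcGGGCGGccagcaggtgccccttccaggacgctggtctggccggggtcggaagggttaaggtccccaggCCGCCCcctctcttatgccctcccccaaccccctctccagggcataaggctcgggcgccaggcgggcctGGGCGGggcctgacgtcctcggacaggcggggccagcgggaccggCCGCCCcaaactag
Hspg2: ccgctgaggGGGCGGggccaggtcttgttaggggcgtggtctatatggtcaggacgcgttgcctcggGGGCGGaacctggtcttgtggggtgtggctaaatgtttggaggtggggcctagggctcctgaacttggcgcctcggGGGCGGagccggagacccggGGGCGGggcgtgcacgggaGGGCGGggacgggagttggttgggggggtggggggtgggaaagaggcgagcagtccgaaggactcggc
Lamb2: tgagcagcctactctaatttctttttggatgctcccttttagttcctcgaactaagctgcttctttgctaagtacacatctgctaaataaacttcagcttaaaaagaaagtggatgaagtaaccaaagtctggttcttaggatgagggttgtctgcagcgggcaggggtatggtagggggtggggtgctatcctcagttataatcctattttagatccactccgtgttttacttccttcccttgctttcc
Agrn: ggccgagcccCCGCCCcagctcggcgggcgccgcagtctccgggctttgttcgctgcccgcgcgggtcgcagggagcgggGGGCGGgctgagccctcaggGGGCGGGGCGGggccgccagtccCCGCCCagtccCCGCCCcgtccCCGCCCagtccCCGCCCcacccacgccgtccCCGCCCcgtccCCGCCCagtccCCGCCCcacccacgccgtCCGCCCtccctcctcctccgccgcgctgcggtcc
GGGCGG occurred 4 times in the Lama5 window, 5 times in that of Hspg2, 12 times in that of Agrn and 0 times in that of Lamb2. It was present in 6 of the 8 member windows, both Agrn windows among them, and in 32.7% of the 32851 RefSeq windows of the same length. G and C made up 72.4% of the Lama5 window, 70.0% of the Hspg2 window, 83.6% of the Agrn window and 43.6% of the Lamb2 window. The E-box CANNTG occurred 2 times for Lama5, 1 time for Lamb2 and 0 times for Hspg2 and Agrn, against 66.2% of all windows that hold it. TGANTCA (the AP-1 site, in 6.75% of all windows) and TATAAA (in 12.4%) were in none of the 4 printed windows, nor was CCAAT (in 33.8%). Lama2 and Nid1, the other members with the WT, Het, KO order, had 0 and 1 matches of GGGCGG in their windows. These are matches of letters only.

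Among the alpha chains, Lama4 fell and Lama5 rose in the KO line, and Lama2 differed little. Lama4 encodes the alpha 4 chain, a short-armed laminin chain of vessel walls, muscle and mesenchyme. Its brighter probe set read 12.09, 12.03 and 12.05 on the WT arrays, 11.84, 11.85 and 11.86 on the Het arrays and 10.82, 10.77 and 10.75 on the KO arrays. The 3 lines did not overlap, with KO lowest and Het just under WT. The KO line was 2.42-fold below WT (log2 difference -1.28 ± 0.037, SE; limma adjusted p = 4.6e-10) and 2.10-fold below Het (-1.07 ± 0.037, adjusted p = 3.9e-09). Het was 1.15-fold below WT (-0.20 ± 0.037, adjusted p = 0.0019). Lama4 was the one member past both adjusted p and 2-fold, in KO against WT and in KO against Het. The background for such a call is 3.56% of all genes in KO against WT (2.58% lower, 0.988% higher) and 2% in KO against Het (1.37% lower).

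The dimmer Lama4 probe set put the Het line closer to the middle. It read 8.54, 8.13 and 8.27 in WT, 7.85, 7.64 and 7.66 in Het and 7.38, 7.11 and 7.18 in KO, again without overlap. The KO line was lower than WT by -1.09 ± 0.11 (log2 difference and its SE; over all probe sets, limma adjusted p = 3.0e-05) and Het by -0.60 ± 0.11 (adjusted p = 0.0034). KO against Het was -0.49 there, and with the mean of both probe sets it was -0.78, under 2-fold. Which share of the fall lay between WT and Het thus depended on the probe set, while the fall from WT to KO passed 2-fold at both.

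Lama5 encodes the alpha 5 chain, the long-armed chain of most adult basement membranes and of epithelia. Its brightest probe set read 9.71, 9.55 and 9.48 in WT, 9.95, 10.02 and 10.12 in Het and 10.59, 10.54 and 10.54 in KO. The lines stood in the order WT, Het, KO without overlap, the reverse of Lama4. The KO line was 1.97-fold above WT (0.98 ± 0.063, limma adjusted p = 2.1e-07), just short of 2-fold, and Het was 1.36-fold above WT (0.45 ± 0.063, adjusted p = 3.6e-04). Without WT replicate 1, the highest WT array, the KO difference was 1.04 and passed 2-fold. KO was above Het by 0.53 ± 0.063 (adjusted p = 4.0e-05). A second probe set gave the same order, from 8.70 to 8.81 in WT, 9.12 to 9.21 in Het and 9.54 to 9.56 in KO, with a KO minus WT difference of 0.80 ± 0.050. The third lay between 4.31 and 4.70 on all arrays, below the low-value limit, with -0.12 and an adjusted p of 0.314 in the limma fit of all probe sets.

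Lama2 encodes the alpha 2 chain of muscle and peripheral nerve, the chain lost in a form of congenital muscular dystrophy. It read 10.19, 10.25 and 10.24 in WT, 10.29, 10.35 and 10.36 in Het and 10.42, 10.34 and 10.39 in KO. All KO arrays were above all WT arrays, and KO and Het overlapped. The rise in KO was 1.11-fold (0.15 ± 0.040, limma adjusted p = 0.0070). The Het difference of 0.11 did not pass (adjusted p = 0.060), although it did with quantile normalization (0.15), with the lowest 60% left out, with a trended and robust variance and without Het replicate 1. The measured skeletal muscle markers rose over the same lines, with Tnni1 at 1.83, Actc1 at 1.69 and Acta1 at 1.61 in KO minus WT. Any link between them and Lama2 was not tested.

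**Figure D1:**
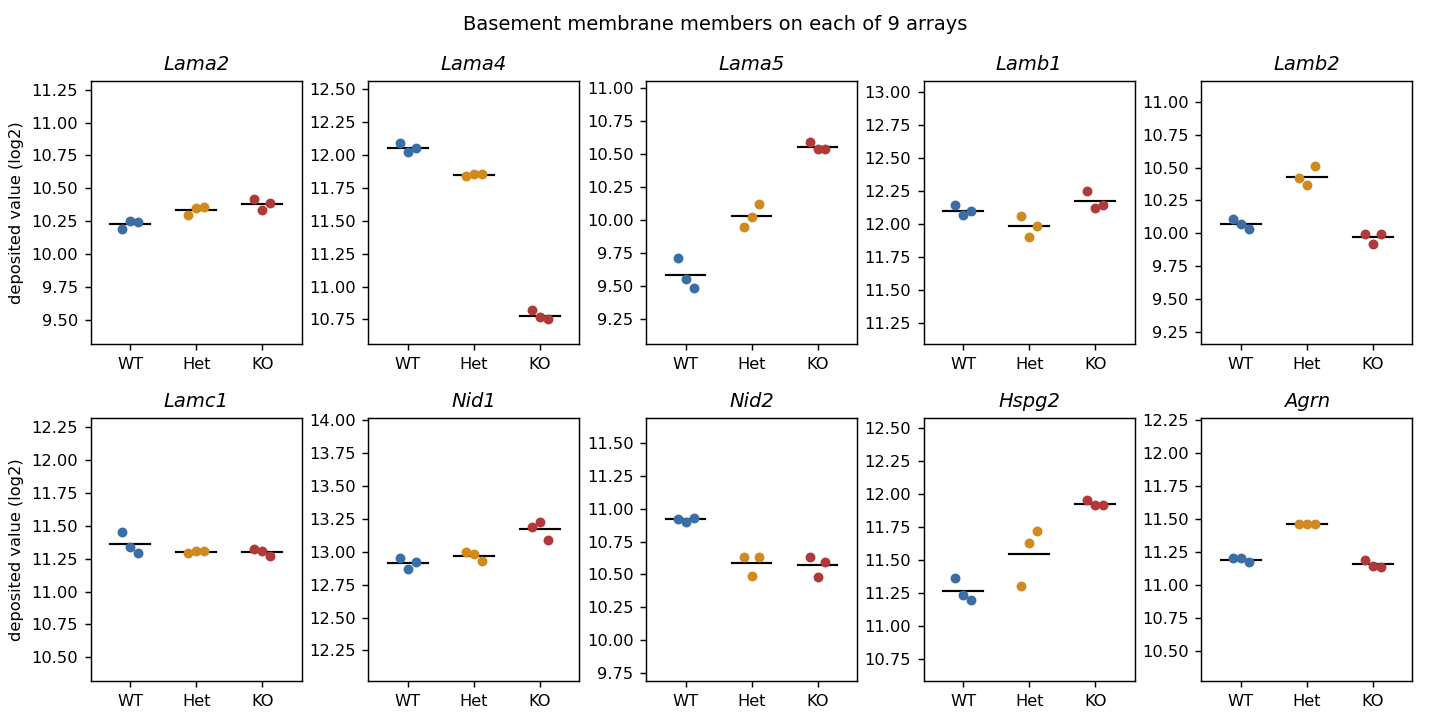
Deposited log2 values of the 10 members on each array, 1 probe set per gene, with WT in blue, Het in orange, KO in red and a black line at each line's mean. Every panel spans 2 log2 units, so slopes can be compared between genes but heights cannot. Lama4 drops to 10.75 to 10.82 in KO and Lama5 climbs to 10.54 to 10.59, while Lamb2 and Agrn peak in Het.

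Of the beta and gamma chains none passed the adjusted p threshold between KO and WT at the probe set of the gene table, while Lamb2 rose in Het. Lamc1 encodes gamma 1, the gamma chain that most laminin trimers share. It read 11.45, 11.34 and 11.29 in WT, 11.29, 11.30 and 11.30 in Het and 11.32, 11.30 and 11.27 in KO, and all 3 lines overlapped. KO minus WT was -0.06 (95% interval -0.16 to 0.04, limma adjusted p = 0.257) and Het minus WT was -0.06 (-0.16 to 0.04, adjusted p = 0.320). KO minus Het was -0.0026 (-0.10 to 0.10). No bound of these intervals lay farther from 0 than -0.16, and those of Lama4 in KO minus WT were -1.36 and -1.19. Its dimmer probe set differed from WT by 0.06 in KO and by -0.07 in Het.

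Lamb1 encodes beta 1, the widespread beta chain of embryonic laminins. Its brightest probe set read 12.14, 12.07 and 12.10 in WT, 12.06, 11.90 and 11.99 in Het and 12.25, 12.12 and 12.14 in KO. WT and KO overlapped and Het lay below both. KO minus WT was 0.07 (95% interval -0.04 to 0.19, limma adjusted p = 0.268), Het minus WT was -0.12 (-0.23 to -0.0045, adjusted p = 0.101) and KO was above Het by 0.19 ± 0.052 (adjusted p = 0.0096). The other Lamb1 probe sets past the limit put Het lower still. One read 10.66, 10.60 and 10.58 in WT and 10.21, 10.10 and 10.26 in Het, a fall of -0.42 ± 0.070 (adjusted p = 0.0020 among all probe sets), with KO at 0.02. The other was at -0.15 in Het (adjusted p = 0.161) and 0.19 in KO (adjusted p = 0.0559). The fall of Lamb1 in Het thus passed at 1 of 3 probe sets, and for the gene as a whole it also passed when its probe sets were averaged (-0.23), with median centring (-0.16), with a trended and robust variance, with the replicate block and without Het replicate 1 (-0.16). The step from Het to KO was lost with quantile normalization (0.12, adjusted p = 0.088). The fourth probe set, at 4.79 to 5.26 on all arrays, was below the limit.

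Lamb2 encodes beta 2, the chain of the glomerulus, vessel walls and the neuromuscular junction. Its only probe set read 10.11, 10.07 and 10.03 in WT, 10.42, 10.36 and 10.51 in Het and 9.998, 9.92 and 9.99 in KO. Het stood above every other array. Het was 1.28-fold above WT (0.36 ± 0.046, limma adjusted p = 2.0e-04) and KO was lower than Het by -0.46 ± 0.046 (adjusted p = 1.1e-05). KO minus WT was -0.10 (95% interval -0.20 to 0.0028, adjusted p = 0.094), and this did not pass although the arrays of both lines did not overlap. The 3′ minus 5′ difference of the GAPDH control probe sets, which depends on RNA integrity, had a value of -0.0020 ± 0.0059 (SD, n = 3 arrays) in Het, against -0.08 ± 0.0097 in WT and -0.07 ± 0.032 in KO. For actin it was 0.11 ± 0.015 in Het and 0.07 in both other lines. Its part in differences that set Het apart was not tested.

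The nidogens differed from WT in opposite directions in the KO line. Nid1 encodes nidogen-1 (entactin), which binds both the laminin gamma 1 chain and type IV collagen. It read 12.95, 12.87 and 12.92 in WT, 12.999, 12.98 and 12.93 in Het and 13.19, 13.23 and 13.09 in KO. KO was above all other arrays, and WT and Het overlapped. The rise was 1.19-fold against WT (0.25 ± 0.046, limma adjusted p = 7.2e-04) and 0.20 ± 0.046 against Het (adjusted p = 0.0039), and Het minus WT was 0.06 (95% interval -0.04 to 0.16). The next Nid1 probe set had a wider spread and fell from replicate 1 to replicate 3 in every line. It read 10.93, 10.67 and 10.55 in WT, 11.18, 11.01 and 10.96 in Het and 11.28, 10.93 and 10.80 in KO. There KO minus WT was 0.29 (adjusted p = 0.130 among all probe sets) and KO minus Het -0.04, and averaging the Nid1 probe sets past the limit brought KO minus Het to 0.08, no longer past the threshold. The third, at 4.52 to 5.33, was below the limit. It was higher by 0.63 in KO and 0.47 in Het.

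Nid2 encodes nidogen-2, a relative with the same binding partners. Its probe set read 10.92, 10.90 and 10.93 in WT, 10.63, 10.49 and 10.64 in Het and 10.64, 10.48 and 10.59 in KO. WT was above both other lines, which overlapped each other. Nid2 fell 1.27-fold in KO (-0.35 ± 0.053, limma adjusted p = 2.2e-04) and 1.26-fold in Het (-0.33 ± 0.053, adjusted p = 8.2e-04). KO minus Het was -0.02 (95% interval -0.13 to 0.10), a value whose sign turned with median centring.

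Of the proteoglycans, Hspg2 rose in the KO line and Agrn stood highest in the Het line. Hspg2 encodes perlecan, a large heparan sulfate proteoglycan that stores growth factors in basement membranes and cartilage. Its brighter probe set read 11.37, 11.24 and 11.20 in WT, 11.30, 11.63 and 11.72 in Het and 11.95, 11.92 and 11.92 in KO. KO was above all other arrays, while Het replicate 1 lay among the WT arrays and the other 2 Het arrays above them. The rise in KO was 1.58-fold (0.66 ± 0.090, limma adjusted p = 9.4e-05), and KO was above Het by 0.38 ± 0.090 (adjusted p = 0.0047). Het was above WT by 0.28 ± 0.090 (adjusted p = 0.033). That call was lost when WT replicate 2, WT replicate 3, Het replicate 2 or Het replicate 3 was left out (0.20 to 0.27) and with median centring (0.25). With the difference at 0.28 it was also lost with no filter on low values (adjusted p = 0.057), with only the compared lines (adjusted p = 0.062) and with the replicate block (adjusted p = 0.055), and the limma fit of all probe sets gave an adjusted p of 0.061. The difference was 0.41 without Het replicate 1. The other probe set repeated the pattern, with 11.24, 11.20 and 11.13 in WT, 11.25, 11.52 and 11.58 in Het and 11.64, 11.69 and 11.64 in KO, and 0.47 ± 0.079 in KO minus WT. Het replicate 1 was the lowest Het array at both.

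Agrn encodes agrin, the proteoglycan that clusters acetylcholine receptors under motor nerve endings and binds laminin and dystroglycan. It read 11.20, 11.20 and 11.17 in WT, 11.46 on all 3 Het arrays and 11.19, 11.14 and 11.14 in KO. Het stood above every other array, as Lamb2 did, and WT and KO overlapped. Agrn rose 1.21-fold in Het (0.27 ± 0.035, limma adjusted p = 2.2e-04) and was lower in KO than in Het by -0.30 ± 0.035 (adjusted p = 3.1e-05). KO minus WT was -0.03 (95% interval -0.11 to 0.04, adjusted p = 0.431). A dim Agrn probe set below the limit read 6.31, 6.37 and 5.94 in WT, 5.86 to 5.94 in Het and 5.93 to 5.94 in KO. It ran opposite in Het, by -0.31 (adjusted p = 0.0398 among all probe sets).

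**Figure D2:**
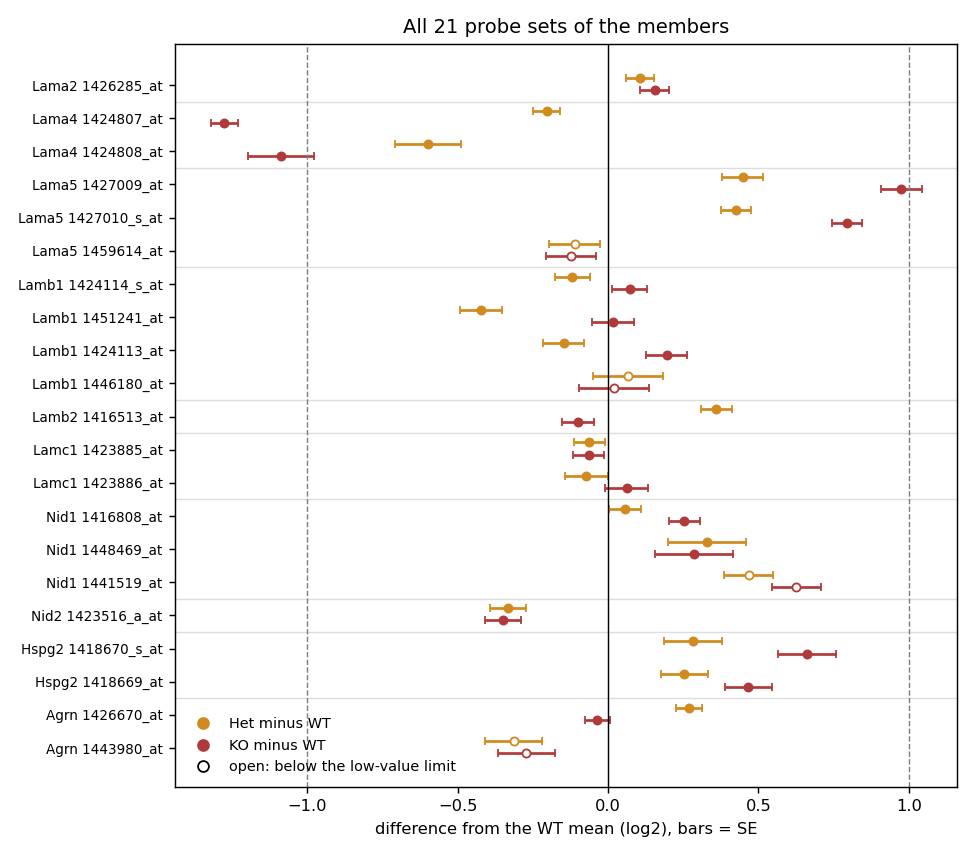
Differences of the Het (orange) and KO (red) line means from the WT mean, in log2 units with bars for the SE, for all 21 probe sets of the members, with open symbols below the low-value limit and dashed lines at 2-fold. Both Lama4 probe sets lie past the left dashed line in KO, the 2 brighter Lama5 probe sets stop at 0.98 and 0.80, and the Lamb1 probe sets spread from -0.42 to 0.07 in Het.

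Counted over the members, 6 of 10 passed the adjusted p threshold of 0.05 in KO against WT with no fold minimum. Lama2, Lama5, Nid1 and Hspg2 rose, Lama4 and Nid2 fell, and Lamb1, Lamb2, Lamc1 and Agrn did not pass. Of all genes 53.1% passed in that comparison (21.6% higher, 31.5% lower), so the count of members lies near the background. The members' median difference was 0.02, against -0.03 over all genes tested. Between Het and WT 6 of 10 passed, with Lama5, Lamb2, Hspg2 and Agrn higher and Lama4 and Nid2 lower, beside 34.4% of all genes (13.4% higher, 21% lower). There the median was 0.08, against -0.01 over all genes. By limma 0 members were past 2-fold between Het and WT, where 0.255% of all genes were called (0.054% higher, 0.201% lower). At an unadjusted p below the same 0.05, 8 of 10 members passed there, beside 5738 of all 12962 genes. Between KO and Het 7 of 10 passed, with Lama5, Lamb1, Nid1 and Hspg2 higher and Lama4, Lamb2 and Agrn lower, beside 52.3% (23.7% higher, 28.6% lower), with a median of 0.02 against -0.02. Arrays did not overlap for 7 of the 10 members in each of the 3 comparisons, beside 61.8% of all genes for KO and WT, 47.7% for Het and WT and 57.9% for KO and Het. The comparisons share lines and are not independent.

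Over the probe sets, 7 of 21 were higher and 3 lower in KO than in WT at the adjusted p threshold, in a fit where 28.9% of all 45037 probe sets passed (14.2% higher, 14.8% lower). Both Lama4 probe sets were past 2-fold there, beside 1.86% of all probe sets (0.646% higher, 1.21% lower). In Het 6 were higher and 5 lower than in WT, beside 21% of all probe sets (10.1% higher, 10.9% lower), and by limma 0 were past 2-fold, beside 0.246% (0.0955% higher, 0.151% lower). Between KO and Het 7 were higher and 4 lower, beside 26.6% (13.1% higher, 13.5% lower), and 1 Lama4 probe set was past 2-fold, beside 1.05% (0.415% higher, 0.637% lower).

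By line order, the members fell into several patterns. Lama5 went up from WT through Het to KO with both steps past the threshold, and Lama4 went down in the same way. Hspg2 had the order of Lama5, but its step from WT to Het overlapped between arrays and was lost under 8 of the alternatives. Lamb2 and Agrn stood highest in Het, with WT and KO not separated by the test. Lamb1 was lowest in Het, where its step to KO passed and that to WT did not. Nid1 stood apart in KO and Nid2 in WT. Lama2 rose from WT to KO with Het separated from neither by the test. Lamc1 was separated in no pair of lines.

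**Figure D3:**
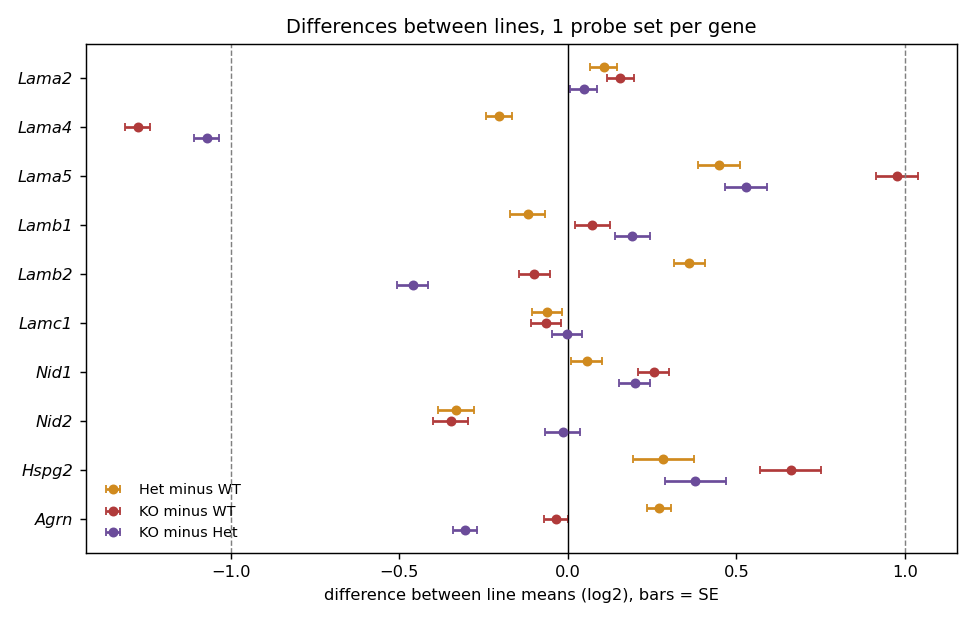
Differences between line means for the 10 members at 1 probe set per gene, in log2 units with bars for the SE, for Het minus WT (orange), KO minus WT (red) and KO minus Het (purple), with dashed lines at 2-fold. Lama4 in KO is the only gene past a dashed line, at -1.28 against WT and -1.07 against Het, and Lama5 ends at 0.98.

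Other genes of the basement membrane were taken from lists by function. Among other laminin chains, Lama1 and Lamc3 were measured above the limit, and Lama3 and Lamb3 were below it. By limma 0 of these 2 passed in KO against WT, also at an unadjusted p below 0.05, where 7524 of all 12962 genes did. Lama1, the alpha chain of the earliest embryonic basement membranes, stood at 7.27 in the WT line, 7.53 in the Het line and 7.28 in the KO line and rose in Het (0.26, limma adjusted p = 0.0017), and KO was lower than Het by -0.25.

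In the type IV collagen network 4 of 5 measured genes rose in KO and 0 fell, with a median difference of 0.36 against -0.03 over all genes, of which 21.6% rose and 31.5% fell. Col4a5, the alpha 5(IV) chain, had the largest rise (0.82 ± 0.074, limma adjusted p = 3.5e-06), followed by Col4a2 (0.40), a chain of the common collagen IV trimer, and none reached 2-fold. In Het 3 of 5 rose, led by Col4a2 (0.21) and Col4a1 (0.16), with a median of 0.14, beside 13.4% of all genes. Between KO and Het 4 were higher, beside 23.7% of all genes, with Col4a5 at 0.9995, just under 2-fold. Col4a3 and Col4a4 lay below the limit.

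Other parts of basement membranes held the related genes past 2-fold. Of 12 measured genes 3 rose past 2-fold in KO, namely Tinagl1, a matricellular protein that binds laminin (1.42), the laminin-binding netrin gene Ntn4 (1.24) and the hemicentin gene Hmcn1 (1.21), and 0 fell so far, where 0.988% and 2.58% of all genes did. Without a fold minimum 6 rose and 4 fell, with a median of 0.21, beside 21.6% and 31.5% of all genes. In Het 7 rose and 2 fell, beside 13.4% and 21% of all genes, led by Col7a1, the anchoring fibril collagen (0.87), and Col18a1, the source of endostatin (0.52). Col18a1 had the Het-high order of Lamb2 and Agrn, at 11.38 in WT, 11.90 in Het and 11.04 in KO. Unlike those members, it also fell in KO against WT (-0.35, limma adjusted p = 2.4e-05). Tinagl1 was also past 2-fold in KO against Het (1.21).

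Receptors of laminin and agrin rose in 4 of 9 measured cases in KO and fell in 1, with a median of 0.06, a count near the 53.1% of all genes that passed. The integrin alpha 3 gene Itga3 rose by 0.90 and the muscle laminin receptor gene Itga7 by 0.89. In Het 4 also rose and 1 fell, beside 34.4% of all genes, with Bcam, a receptor for the laminin alpha 5 chain, at 0.49 and Itga7 at 0.35. Bcam went from 7.31 in the WT line over 7.80 in Het to 8.13 in KO, the order of Lama5. The laminin receptor dystroglycan is made from Dag1, whose mean was 12.52 in the WT line, 12.48 in the Het line and 12.47 in the KO line, and no difference passed. Musk and Itgb4 were below the limit.

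Enzymes that build the laminin-binding sugar chain of dystroglycan differed little. Of 6 measured genes 2 rose in KO, Pomgnt1 (0.25) and Rxylt1 (0.15), and 0 fell (median 0.03), beside 21.6% and 31.5% of all genes. In Het Pomgnt1 rose (0.12) and B4gat1 fell (-0.23). Of 13 heparan sulfate chain enzymes 5 rose and 4 fell in KO (median 0.01), beside 53.1% of all genes that passed in either direction. The sulfotransferase gene Hs3st1 rose by 0.68 and the heparanase gene Hpse, whose product cuts such chains, fell by 0.83. In Het 1 rose and 4 fell, beside 34.4% of all genes, with Hpse at -0.42 and Hs2st1 at -0.29. None of these enzymes reached 2-fold, beside 3.56% of all genes in KO against WT and 0.255% in Het against WT.

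**Figure D4:**
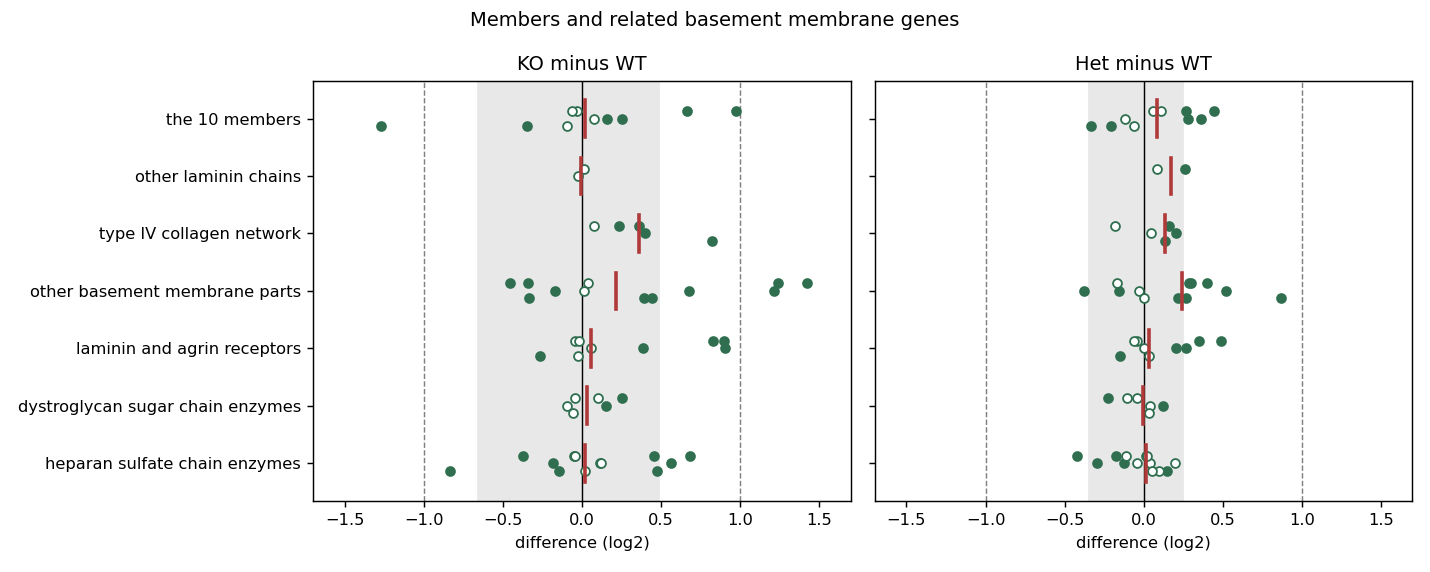
Differences from WT in log2 units for the 10 members and 6 lists of related genes, KO on the left and Het on the right, with 1 point per gene, filled where the adjusted p passed, a red bar at each list's median, dashed lines at 2-fold and grey for the middle 90% of all genes tested. Lama4, at -1.28, is the lowest point of the KO panel, and Tinagl1, Ntn4 and Hmcn1 lie past the right dashed line.

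Cell type markers that moved over the same lines are given beside these results. Of 10 macrophage markers 10 fell past 2-fold in KO (median -1.82), led by Cd68 (-2.63), Mpeg1 (-2.02) and Lyz2 (-1.89), and 9 were lower in Het (median -0.34), beside 2.58% of all genes called lower in KO and 21% lower in Het. Of 8 smooth muscle and pericyte markers 4 rose past 2-fold in KO (median 1.06), led by Rgs5 (2.13), Cnn1 (1.65) and Mcam (1.35), and all 8 were higher in Het at the adjusted p threshold (median 0.41), beside 0.988% of all genes called higher in KO and 13.4% higher in Het. The epithelial markers Krt18 (1.68), Krt19 (1.26) and Cldn4 (0.50) rose in KO. The Schwann and neural markers Erbb3 (0.79), Sox10 (0.68) and Foxd3 (0.58) rose in KO, and in Het they were at 0.82, 0.69 and 0.44. Of the 9 fibroblast markers 1 rose and 4 fell in KO, beside 21.6% and 31.5% of all genes. In Het 1 rose and 2 fell, beside 13.4% and 21%. Pdgfra (-2.55 in KO, -0.61 in Het) and Dcn (-0.93 and -0.33) fell in both lines, while Vim rose in KO (0.11) and Thy1 in Het (0.34). Lama4, at -1.28 in KO and -0.20 in Het, had the line order of the macrophage markers and of Pdgfra and Dcn. The means of Nid2 and Lamc1 had it too, with KO and Het not separated by the test. Lama5 and Hspg2 had the order of the smooth muscle and pericyte, skeletal muscle and epithelial markers in sum, as did the means of Lama2 and Nid1. With only 3 lines, a shared order ties no member to a cell type, and such a link was not tested.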

How the data were processed

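RNA of 9 samples was extracted with Trizol, DNase-treated and hybridised to Affymetrix arrays after biotin labelling of 20 µg cRNA, per the labels' protocols. The authors deposited 1 table of 45101 probe sets in log2 units, the base being inferred from the values. GCOS and Partek are named in the submitters' processing notes, without versions. The steps of background correction, normalization and summarization were not given in the sources used here. The values were used as deposited, with array medians between 6.87 and 6.95.

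The 64 control probe sets were left out. Names came from the platform annotation. For the gene table, probe sets in the lowest 40% by mean were removed and the brightest probe set of each gene was kept, giving 12962 genes. limma 3.58.1 in R 4.3.3 was fitted to all 9 arrays with 1 mean per line, and p-values were adjusted by Benjamini-Hochberg over all genes. A second fit took all 45037 probe sets without a filter. "Rose" and "fell" mean an adjusted p below 0.05, with 2-fold stated separately. Summed marker levels are sums of 2 to the power of the log2 values. The fit was tested on simulated data. Related genes were named by a rule: those past 2-fold, up to 4 per list by size, or otherwise the 2 largest past the adjusted p threshold, and up to 3 markers per list by their KO difference. Col18a1 in its Het-high order, Bcam over the lines and Dag1 were added after their values were seen. So were the fibroblast markers Vim and Thy1, the epithelial marker Krt8 and the Het value of Esam. The members and lists were chosen with earlier results of these data known. The precision is limited by the number of arrays, which give no read depth. Plots were made with matplotlib 3.10.9.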

Additional observations from a re-analysis of the deposited data

How the results depend on the processing

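The alternatives were quantile normalization, median centring, other low-value filters, the mean of a gene's probe sets, only probe sets without _s_at, _x_at or _a_at endings, a 1.5-fold minimum, a replicate block, fits of the compared lines alone, and each array left out in turn, besides a variance fitted with trend and robustness. Of 537 member differences under an alternative, 510 kept their direction and side of the adjusted p threshold, 10 lost and 10 gained it, and 7 changed sign. The sign changes were all in KO against Het: Lamc1 with median centring (0.0497), the mean of probe sets (0.0657) or without KO replicate 3 (0.0130), and Nid2 with median centring (0.0365) or without Het replicate 1 (0.00862), Het replicate 3 (0.00897) or KO replicate 2 (0.0291). With an array left out, this difference ran from -0.0150 to 0.0130 for Lamc1 and from -0.0650 to 0.0291 for Nid2. The cause was not tested. The number of members past 2-fold in KO against WT, 1 as reported, was 3 with a 1.5-fold minimum (Lama4, Lama5 and Hspg2) and 1 to 2 with an array left out. In KO against Het it was 0 with the mean of probe sets and 1 with any array left out. Members past the adjusted p threshold numbered 5 to 6, 5 to 8 and 6 to 7 in KO against WT, Het against WT and KO against Het. Over all genes, arrays of the same number deviated together at r = -0.18 to 0.21, above 0.1 in 2 of 9 pairs. These values show no common pairing over all genes, but they cannot exclude a shared replicate pattern at single members. The second Nid1 probe set had such a pattern. So did the Lamb1 probe set of the gene table and the dimmer Lama4 probe set, with replicate 1 highest and replicate 2 lowest in every line. For Nid2, replicate 2 was the lowest array in every line. In KO against WT the replicate block moved the SE of Lamb1 from 0.052 to 0.039 and that of Nid2 from 0.053 to 0.043. That of Hspg2 went from 0.090 to 0.098. With the replicate block 6 members passed in KO against WT and 1 was past 2-fold, while Hspg2 in Het against WT no longer passed (adjusted p = 0.055) and Lamb1 there passed (adjusted p = 0.045).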
